A study of Equus caballus with 12 samples.

Results

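The 28 genes described here had a low mean count in naive equine mesenchymal stem cells (MSCs) and a higher one after licensing, the exposure of the cells to cytokines before use. They were taken from the authors' table of 1341 genes that differed between the groups, of which 670 were listed as higher in licensed cells. A gene was included when it had a symbol, a mean of at least 30 normalized counts over the 6 licensed libraries and a mean of at most 10 over the 6 naive libraries. Solute carriers, the desmosome genes DSG2, DSC2 and DSP, and ODAPH, TNIP3, ADIPOQ, NRG1 and RHCG were left out. In all, 42 listed genes lay past both limits. Of the 14 that were not included, 9 had no symbol and 5 were named exceptions. Because the group means chose the genes, the difference between the groups is given as a description and no test of it is used as evidence.

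The cells came from the bone marrow of 6 horses, and each horse gave 1 licensed and 1 naive culture, sequenced as polyA-selected bulk RNA. Licensed cultures received recombinant human IL-1β at 2 ng/ml together with recombinant human TGF-β2 at 1 ng/ml for 72 hours. Naive cultures were grown for the same 72 hours in the same serum-containing low-glucose medium without added cytokine. The reads on the listed genes numbered 2718393 to 3424328 per licensed library and 1672419 to 1844648 per naive library. How deeply each library was sequenced in all is unknown.

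IL-1β is an inflammatory cytokine whose receptor activates NF-κB and stress kinases, and TGF-β2 acts through receptor kinases that phosphorylate SMAD proteins. Both pathways change transcription directly and also through the cytokines and transcription factors they induce. In bulk RNA, few cells with much RNA and many cells with little cannot be told apart. A normalized count, a read count divided by 1 size factor per library, depends on transcript length, so counts below are compared between libraries for 1 gene and not between genes.

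Naive cells were at the floor of counting for many of these genes. Of the 168 licensed values of the 28 genes, 1 was 0 and 3 rested on at most 3 reads. In naive libraries 18 of 168 values were 0 and 86 rested on at most 3 reads. For 10 of the genes there was a naive library with no read, while 19 of the 28 had a naive library above 10 normalized counts. A count of 3 reads corresponded to 2.56 to 3.07 normalized counts in licensed and 2.91 to 3.33 in naive libraries. Summed over the 28 genes, licensed libraries held 974 to 2459 normalized counts, against 106 to 255 in naive libraries. The licensed sum of a horse was 8.12 to 11.0 times its own naive sum, so the ratio varied less between horses than the sums did.

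**Figure D1:**
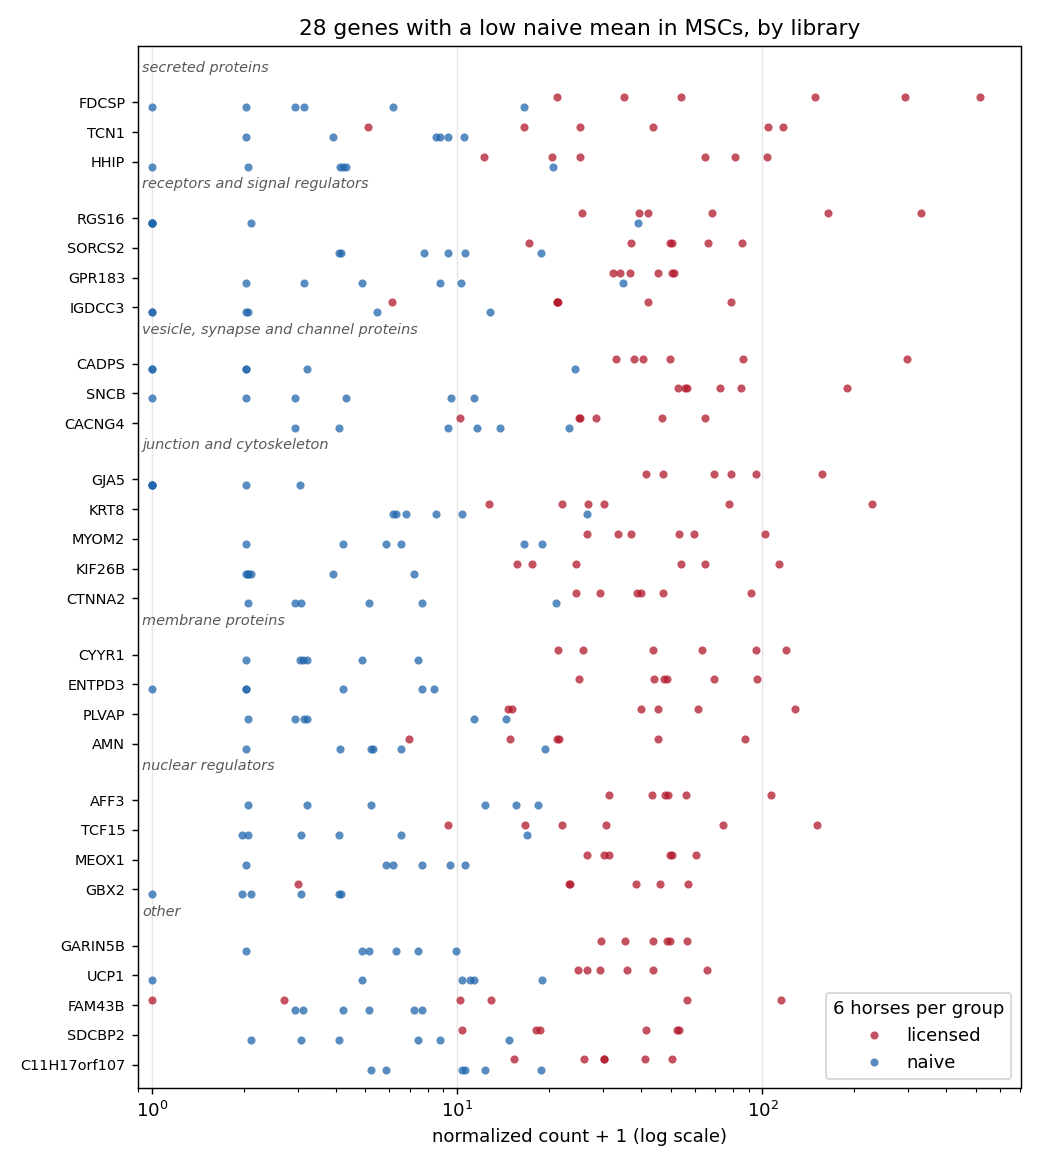
Normalized counts plus 1 on a log scale for the 28 genes, 1 point per library, licensed libraries in red and naive libraries in blue, with genes grouped by what their products are known for. The point sets of 14 genes do not overlap, and GJA5 has the widest gap on this log scale, with 40.4 as its lowest licensed and 2.07 as its highest naive normalized count.

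In the authors' deposited table, the log2 fold changes of the 28 genes ran from 1.73 to 7.27 with a median of 3.09, and the largest adjusted p was 0.0214. By these calls 5.08% of the genes the authors tested were higher, and the rule took its 28 genes from among them. When the listed genes were refitted with limma on log2(normalized count + 1), 27 of the 28 passed an adjusted p of 0.05 with a change of more than 2-fold, beside 48.4% of all listed genes and 96.9% of the 670 listed as higher. The exception was FAM43B. This fit repeats the contrast that chose the genes and serves here for errors only. For 14 of the 28 genes, every licensed library lay above every naive library, beside 64.9% of the 670 genes listed as higher and 53.0% of the 149 other higher genes whose licensed mean was in the same range as the 28. These 149 were not matched in level. Their median licensed mean was 83.0 normalized counts, against 49.6 for the 28, and their median naive mean 24.0, against 5.45. Licensed was above naive within each horse for 26 of the 28, and FAM43B and GBX2 were the exceptions. Of the 670 genes listed as higher, 94.3% were above in all 6 horses. By these counts the 28 genes were separated between groups no more often than other genes listed as higher.

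The 3 genes nearest to each limit on either side were as follows. Just under the naive limit were CACNG4, KRT8 and GPR183, with naive means of 9.83, 9.78 and 9.67 normalized counts, and just over it were SH2D5, PIRT and EDN2, with 10.6, 10.6 and 10.8. Just past the licensed limit were IGDCC3, GBX2 and C11H17orf107, with licensed means of 30.8, 30.9 and 31.3 normalized counts. KIF21A, with 29.7, QRICH2, with 29.3, and the microRNA gene eca-mir-9102, with 28.7, fell short of it.

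**Figure D2:**
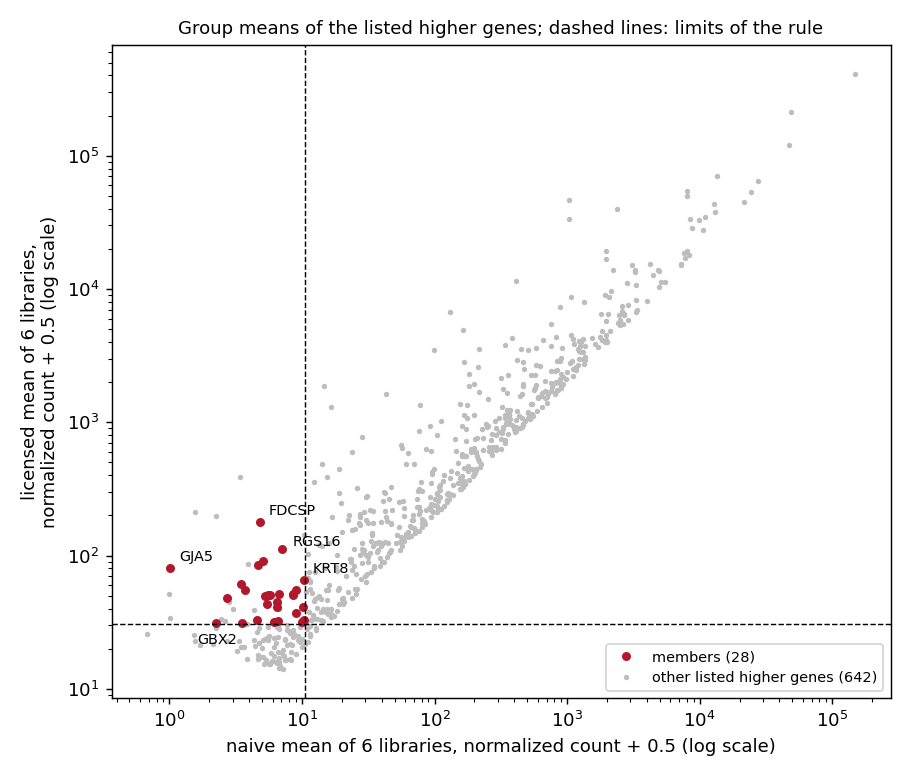
Licensed against naive mean of 6 libraries, as normalized count plus 0.5 on log scales, for the 670 listed higher genes, with the 28 genes in red and the others in grey. Dashed lines mark the limits of 10 and 30, and the red points close to the lines would move across them with small changes in a mean.

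Counts of genes without overlap are given below by role, for 3 to 5 genes each, as descriptions. They say nothing about a role. Of the 28 genes, 3 encode secreted proteins. FDCSP, a small peptide first known from follicular dendritic cells and also secreted by tooth-attached epithelium, rose most of these. FDCSP (ENSECAG00000004501) had 293, 148, 53.2, 513, 34.2 and 20.2 normalized counts in the licensed libraries of horses 1 to 6, against 0, 2.14, 1.94, 15.6, 1.04 and 5.16 in the naive libraries. Each licensed library was above all naive ones, but the licensed libraries differed 25.5-fold among themselves. Its limma log2 fold change was 4.80 ± 0.83 (SE) and its deposited log2 fold change 5.37. TCN1, the vitamin B12-binding protein haptocorrin of neutrophil granules and saliva, averaged 50.9 ± 47.2 normalized counts in licensed and 6.18 ± 3.38 in naive cells (SD, n = 6 each). Its licensed level was 115 in horse 2 and 104 in horse 5 but 4.09 in horse 3, which overlapped the naive range of 1.03 to 9.53. HHIP, a membrane-anchored and shed antagonist of hedgehog ligands, averaged 50.3 ± 37.4 in licensed and 5.06 ± 7.26 in naive cells, with 103 and 19.6 normalized counts in horse 6, the highest of each group.

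Another 4 genes act in signal reception or its control. RGS16 (ENSECAG00000036440), which speeds the shut-off of G proteins downstream of receptors, had 330.2, 41.1, 24.5, 163, 67.5 and 38.5 normalized counts in the licensed libraries of horses 1 to 6. Its naive libraries held 38.1 in horse 1, 1.11 in horse 4 and 0 in the other 4 horses. The naive library of horse 1 therefore reached the licensed range of the other horses. Without horse 1, RGS16 rested on 372 licensed reads and 1 naive read, a ratio of 334 with a counting interval of 59.6 to 13222, against 17.1 (12.3 to 24.5) with all 6 horses. These exact 95% intervals cover counting error only.

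GPR183, the receptor of oxysterols that guides B cells and dendritic cells, had the most even licensed level of the 28, at 40.8 ± 8.39 normalized counts, with 9.67 ± 12.3 in naive cells. Its naive mean came largely from horse 1, at 33.9, while the other naive libraries lay between 1.04 and 9.29. SORCS2, a sortilin-family receptor of pro-neurotrophins, averaged 50.1 ± 23.5 in licensed and 8.13 ± 5.42 in naive cells. IGDCC3, a cell surface protein of the immunoglobulin superfamily, averaged 30.8 ± 25.7 in licensed and 3.05 ± 4.58 in naive cells. For none of these 4 genes were the groups free of overlap.

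Of 3 genes best known from neurons and secretory cells, 2 had groups that did not overlap, beside 53.0% of the 149 other higher genes. CADPS (ENSECAG00000014486), which primes dense-core vesicles for calcium-triggered release, had 296, 85.1, 36.8, 48.7, 39.7 and 32.1 normalized counts in the licensed libraries of horses 1 to 6, against 23.3, 0, 0, 2.22, 1.04 and 1.03 in the naive libraries. Horse 1 was highest in both groups. Without it, CADPS averaged 48.5 ± 21.3 in licensed and 0.859 in naive cells, where it rested on 4 reads.

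SNCB (ENSECAG00000039617), which encodes the presynaptic protein β-synuclein, had 189, 54.8, 71.6, 55.5, 51.8 and 84.3 normalized counts in licensed libraries and 0, 8.57, 1.94, 3.33, 1.04 and 10.3 in naive libraries. The lowest licensed library, at 51.8, was above the highest naive library, at 10.3, with a limma log2 fold change of 4.34 ± 0.57. CACNG4, an auxiliary subunit of calcium channels and glutamate receptors, averaged 32.5 ± 19.4 in licensed and 9.83 ± 7.39 in naive cells, and its groups overlapped.

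The gene with the largest change was the connexin gene GJA5, whose protein connexin 40 forms gap junctions in arterial endothelium and atrial muscle. GJA5 (ENSECAG00000022462) had 40.4, 68.5, 77.7, 46.1, 94.3 and 156 normalized counts in the licensed libraries of horses 1 to 6. In naive libraries it had 0 in horses 1 to 4, 1.04 in horse 5 and 2.07 in horse 6, which are 1 and 2 reads. Its 512 licensed reads against 3 naive reads gave a ratio of 155 with a counting interval of 52.6 to 752. The deposited log2 fold change, 7.27, was number 2 in size among the 670 higher genes, and the log2 difference between the libraries of a horse, after adding 1, was 5.37 to 6.30. The licensed and naive libraries of horse 6 were the highest of their groups.

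Among 24 connexin and pannexin genes, the only other one in the table was GJA4, which encodes connexin 37 and moved the other way. GJA4 averaged 8.16 ± 8.20 normalized counts in licensed and 37.3 ± 20.3 in naive cells (deposited log2 fold change -2.20, adjusted p = 0.00142). The other genes of that list were not in the table and were not analysed here.

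The remaining junction and cytoskeleton genes had smaller fold changes. KRT8 (ENSECAG00000021775), the keratin of simple epithelia, had 29.3, 11.7, 76.7, 227, 25.9 and 21.1 normalized counts in licensed libraries and 5.29, 7.50, 5.81, 25.5, 9.35 and 5.16 in naive libraries. Horse 4 was far above the others in both groups and gave 58.0% of the licensed sum. KIF26B (ENSECAG00000013009), an atypical kinesin of tissue morphogenesis, had 112, 23.5, 53.2, 64.0, 16.6 and 14.7 in licensed libraries and 1.06, 1.07, 2.91, 1.11, 1.04 and 6.20 in naive libraries, with no overlap.

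MYOM2 (ENSECAG00000017592), an M-band protein of striated muscle, had 101, 58.7, 32.7, 52.1, 36.0 and 25.7 normalized counts in licensed libraries and 18.0, 3.21, 4.84, 5.55, 1.04 and 15.5 in naive libraries, also without overlap. CTNNA2, the neuronal α-catenin that links cadherins to actin, averaged 44.3 ± 24.2 in licensed and 6.00 ± 7.20 in naive cells. Its highest naive library, horse 1 at 20.1, lay just below its lowest licensed library, horse 2 at 23.5.

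Of 4 membrane proteins, 3 had groups that did not overlap, beside 53.0% of the 149 other higher genes in the same licensed range. CYYR1 (ENSECAG00000015554) had 118, 93.9, 43.0, 24.8, 20.3 and 62.3 normalized counts in licensed libraries and 2.12, 6.43, 3.88, 2.22, 1.04 and 2.07 in naive libraries. ENTPD3 (ENSECAG00000017628), an ectoenzyme that breaks down extracellular ATP, had 94.9, 43.0, 68.5, 47.8, 24.0 and 46.7 in licensed libraries and 7.41, 3.21, 0, 6.66, 1.04 and 1.03 in naive libraries. The limma log2 fold changes of the pair were 3.81 ± 0.47 and 3.98 ± 0.53.

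PLVAP, the diaphragm protein of fenestrated and caveolar endothelium, averaged 49.7 ± 41.8 normalized counts in licensed and 5.20 ± 5.30 in naive cells. AMN, the partner of cubilin in the uptake of vitamin B12 with intrinsic factor, averaged 32.0 ± 29.8 in licensed and 6.11 ± 6.22 in naive cells. For AMN the licensed library of horse 4, at 5.98, was level with its naive library, at 5.55.

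A further 4 genes encode nuclear regulators, and 3 of them are transcription factors of embryonic patterning. TCF15, the bHLH factor of somite epithelium, averaged 49.6 ± 54.0 normalized counts in licensed and 4.77 ± 5.70 in naive cells, and horse 1 gave 50.2% of the licensed sum. MEOX1, a homeobox factor of the somites, had a narrower licensed spread, at 40.6 ± 13.9 normalized counts, against 5.97 ± 3.05 in naive cells, without overlap. GBX2 (ENSECAG00000007324), a homeobox factor of the midbrain and hindbrain border, had 2.02, 45.0, 22.5, 37.6, 22.2 and 55.9 in licensed libraries and 3.18, 0, 0.969, 1.11, 2.08 and 3.10 in naive libraries. In horse 1 GBX2 had 2 reads in the licensed and 3 in the naive library, while the licensed libraries of the other 5 horses had at least 22.2 normalized counts. AFF3 (ENSECAG00000006249), a nuclear protein of transcription elongation known from lymphoid cells, had 106, 30.3, 48.1, 47.0, 42.5 and 55.0 in licensed libraries and 4.23, 1.07, 17.4, 2.22, 14.5 and 11.4 in naive libraries.

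The last 5 genes share no role. GARIN5B, of a family that interacts with Golgi RAB proteins, averaged 43.0 ± 9.94 normalized counts in licensed and 4.94 ± 2.64 in naive cells, without overlap. Its limma SE of 0.37, with no term for the horse, was the smallest of the 28. With the horse as a block its SE was 0.27 and that of C11H17orf107, at 0.25, was the smallest. UCP1, the mitochondrial uncoupling protein of brown fat in mice and humans, averaged 36.7 ± 15.3 in licensed and 8.59 ± 6.17 in naive cells, also without overlap. SDCBP2, the PDZ-domain protein syntenin-2, averaged 31.4 ± 18.9 in licensed and 5.70 ± 4.70 in naive cells. C11H17orf107 averaged 31.3 ± 12.2 in licensed and 9.53 ± 4.93 in naive cells.

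FAM43B did not share the pattern of the others across horses. It had 114, 55.8, 9.20, 1.71, 0 and 11.9 normalized counts in the licensed libraries of horses 1 to 6, against 2.12, 3.21, 1.94, 6.66, 4.16 and 6.20 in the naive libraries. Licensed was below naive in horses 4 and 5, and horse 1 alone gave 59.2% of the licensed sum. Its limma log2 fold change of 1.29 ± 0.97 did not pass (adjusted p = 0.205), although the authors' deposited table listed it with an adjusted p of 0.00802. Without horse 1 its licensed mean was 15.7 ± 22.9 and the naive mean 4.43, so that it would not have been chosen.

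**Figure D3:**
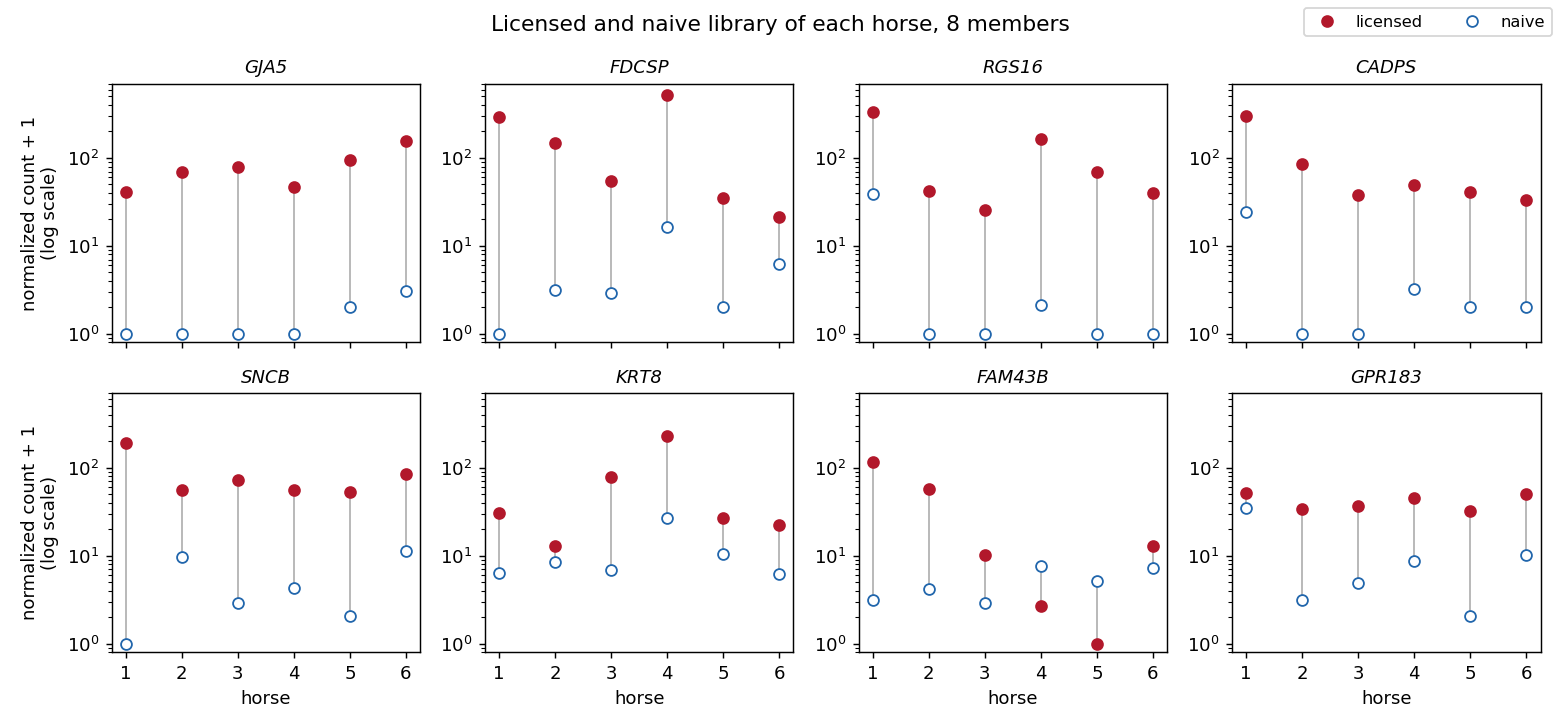
Normalized count plus 1 on a log scale in the licensed (filled red) and naive (open blue) library of each horse for 8 of the genes, joined by a line within a horse. GJA5 differed by 5.37 to 6.30 on the log2 scale within all 6 horses, RGS16 and GPR183 had a raised naive level in horse 1, and FAM43B was lower after licensing in horses 4 and 5.

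The licensed level of these genes varied widely between horses. The coefficient of variation (SD divided by mean) over the 6 licensed libraries had a median of 0.623 over the 28 genes and ran from 0.206 for GPR183 to 1.40 for FAM43B. Over the 642 other listed higher genes the median was 0.335. Over the 149 of these with a licensed mean in the range of the 28 genes, though not matched in level, it was 0.407. With the counting error of the reads subtracted, the medians were 0.606 for the 28 genes and 0.395 for those 149. The limit on the licensed mean was applied to these same values and lets in genes carried by 1 library, so the spread is a description, with no test. Without horse 1 the median was 0.522 for the 28 genes and 0.373 for the 149. In 4 of the 28, KRT8, CADPS, TCF15 and FAM43B, a single library held more than 50% of the licensed sum.

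**Figure D4:**
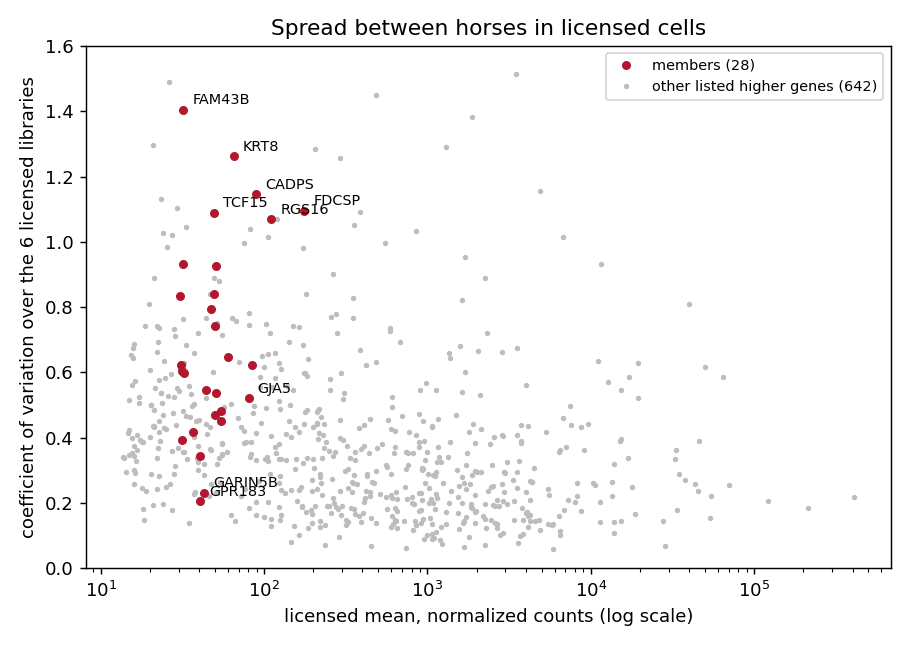
Coefficient of variation over the 6 licensed libraries against the licensed mean in normalized counts (log scale) for the 28 genes in red and the 642 other listed higher genes in grey. FAM43B, KRT8, CADPS, FDCSP, TCF15 and RGS16 lie above 1, and GARIN5B and GPR183 are lowest, at 0.231 and 0.206.

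The means that chose the genes include the level of every horse, so which horse was highest is also a description. Without horse 1 the licensed means of TCF15, FAM43B and AMN were 29.6, 15.7 and 29.5 normalized counts, under the limit. Without horse 3 those of AMN and SDCBP2 were 21.0 and 27.2. Leaving out any other horse also took genes out of the set. The licensed library of horse 1 was the highest for 13 of the 28 genes, that of horse 4 for 7 and that of horse 6 for 5. Horses 2, 3 and 5 led for 1, 2 and 0. The naive library of horse 1 was highest for 11 of the 28, that of horse 4 for 7 and that of horse 6 for 5. Some of these naive ranks rest on very few reads. For GBX2 the naive libraries of horses 1 and 6 both had 3 reads, and only the size factor put horse 1 first. Among the 149 other higher genes in the same licensed range, horse 1 was highest for 29.5% in licensed and 18.8% in naive cells, against 46.4% and 39.3% of the 28 genes.

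The order of the horses was partly shared between conditions. For 18 of the 28 genes (64.3%) the same horse was highest in licensed and in naive cells, compared with 40.9% of the 149 genes in the same licensed range and 41.7% of all 642 other higher genes. Horse 1 led in both groups for CADPS, CTNNA2, ENTPD3, GPR183, MYOM2, RGS16, TCF15 and UCP1. Horse 4 did so for C11H17orf107, CACNG4, FDCSP, GARIN5B, KRT8 and SORCS2, horse 6 for GJA5, HHIP and PLVAP, and horse 3 for AMN. Which naive library was highest can turn on single reads, as for GJA5, with 2 reads in horse 6 and 1 in horse 5. The 149 genes had a median naive mean of 24.0 normalized counts, against 5.45 for the 28, so the shares are not compared at like naive levels. They are descriptions and were not tested.

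**Figure D5:**
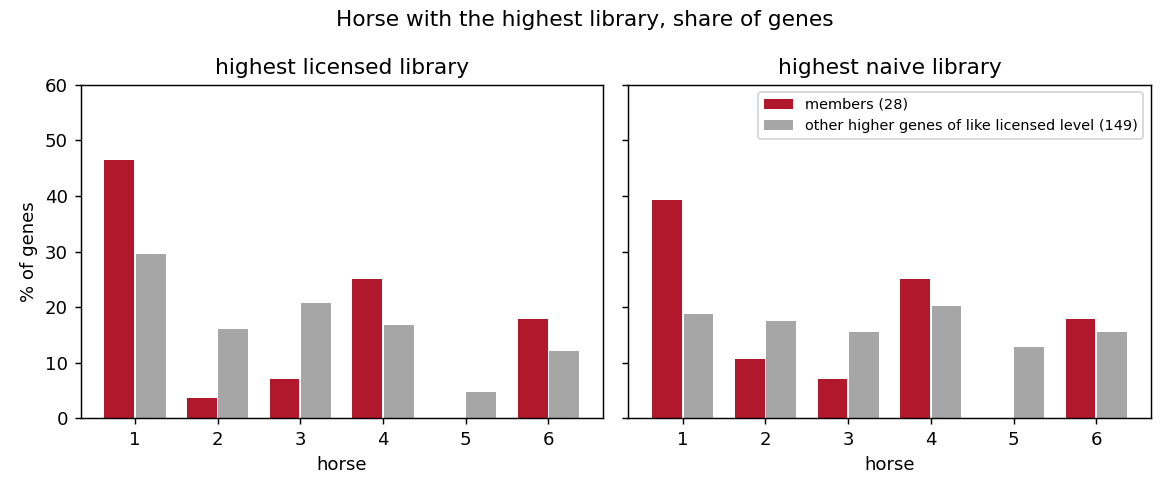
Share of genes, in percent, whose highest licensed library (left) or highest naive library (right) came from each horse, for the 28 genes in red and 149 other higher genes in grey. The 149, labelled as of like licensed level, share the range of licensed means but are not matched in level. Horse 1 led for 46.4% of the 28 genes in licensed and 39.3% in naive cells.

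Horse 1 also stood apart in genes outside the set. Of 46 NF-κB target genes of inflammation, 15 were in the table, all as higher and none among the 28. Their summed level was 238057 normalized counts in the licensed library of horse 1, with 78928 to 217311 in the other licensed libraries, and 48639 in its naive library, with 4510 to 6774 in the other naive libraries. Of 40 TGF-β target genes, the table held 15 that rose and 5 that fell, again none of them among the 28. Their sum in horse 1, 800648 licensed and 219765 naive, was not above the other horses, at 790754 to 986946 and 244917 to 285286. Horse 1 was below all other horses in both groups for the listed osteoblast markers ALPL and IBSP, whose sum was 2194 in its licensed library, with 12837 to 25361 in the others, and 520 in its naive library, with 3954 to 7317 in the others. The summed level of the listed smooth muscle markers was also lowest in horse 1 in both groups, at 1191 licensed and 705 naive. Of these markers only CNN1, at 965 licensed and 286 naive, was itself lowest there in both groups. MCAM in the licensed library of horse 1, at 217, and MYH11 in its naive library, at 150, lay within the range of the other horses. For the neural marker TUBB3 horse 1 was lowest in both groups, at 5618 licensed and 560 naive. The part of these levels in the results for RGS16, CADPS, GPR183 and the other genes led by horse 1 was not tested.

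Several of the 28 genes are best known from cell types other than MSCs, and the markers of those types were looked up in the table. Of 10 epithelial markers KRT8 was the only one listed, with 11.7 to 227 normalized counts in licensed and 5.16 to 25.5 in naive libraries. Of 10 endothelial markers ERG was listed, at 241 ± 45.8 in licensed and 93.7 ± 32.8 in naive cells. Of 5 follicular dendritic cell markers FDCSP was listed as higher and CLU, an abundant secreted chaperone, as lower. Of 6 neural markers the tubulin gene TUBB3 was listed as higher.

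Of 5 adipocyte markers the fatty acid carrier gene FABP4 was listed, as lower, at 15.9 ± 4.84 in licensed and 49.4 ± 18.8 in naive cells. Of 7 smooth muscle and pericyte markers CNN1 was listed as higher and MYH11 and MCAM as lower. The myosin gene MYH11 averaged 22.4 ± 9.89 in licensed and 139 ± 52.7 in naive cells. Of 6 osteoblast markers ALPL and IBSP were listed as higher, and of 5 chondrocyte markers COMP was listed as higher and SOX9 as lower.

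No myeloid, lymphoid or erythroid marker of 10, 7 and 4 looked up was in the table. Of 9 mesenchymal stromal markers THY1 was listed, at 2426 ± 1778 in licensed and 18790 ± 10276 in naive cells. Markers that the table does not list, among them the defining endothelial genes PECAM1 and CDH5 and the epithelial genes EPCAM and CDH1, were not analysed here, so the part of other cell types in these results was not tested.

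Of 31 secreted antimicrobial and protease-inhibitor genes, 6 were in the table. FDCSP, SLPI, PI3 and S100A12 were listed as higher, and A2M and RNASE4 as lower. SLPI, a secreted inhibitor of leukocyte proteases, averaged 589 ± 428 normalized counts in licensed and 62.2 ± 42.6 in naive cells. PI3, the elastase inhibitor elafin, averaged 124 ± 63.2 in licensed and 15.5 ± 20.2 in naive cells and was over the naive limit, with 55.8 in the naive library of horse 6. The median deposited log2 fold change of the 6, which moved both ways, was 2.59. The median over the whole table, -1.002, is set by the table's limit on fold change and is no background for it.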

How the data were processed

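Bulk RNA-seq of 12 libraries, 6 licensed and 6 naive, paired by horse per the labels, was analysed from 1 deposited table. Per the submitters' processing notes, Trimmomatic 0.36, STAR 2.5.2b, featureCounts (Subread 1.5.2) and DESeq2 were used. Not given in the sources used here are the genome build, the annotation and whether counting used strand. Reads of antisense overlaps therefore cannot be assigned with certainty. The deposited table holds a log2 fold change with its p-value and adjusted p from the authors, and a signal per library that is a read count divided by 1 size factor. It lists called genes only (smallest absolute log2 fold change 1.001, largest adjusted p 0.0499). The ratio of adjusted p to p in the authors' deposited table corresponds to 13183 tested genes, at which 89.9% of ranks came out whole within 0.05 over 404 listed genes. In every library all values (100%) were whole multiples of a fixed step, with a tolerance of 0.01 reads, which gave the reads back. DESeq2 1.42.0 on these reads with the deposited size factors and no term for the horse gave log2 fold changes within 0.01 of the authors' for all 1341 genes.

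All listed genes were fitted with limma 3.58.1 (R 4.3.3, trend and robust) on log2(normalized count + 1), with Benjamini-Hochberg adjustment and no term for the horse. The fit was tested on simulated data in which most genes did not change and the spread was below the median spread of the 28. That test therefore does not cover genes like the 28. Because 1 is added to each count, the fit understates changes near 0. edgeR 4.0.16 and DESeq2 with its own size factors, estimated over the listed genes, were alternatives on the recovered reads. The libraries of a horse deviated together from their group means, with correlations across genes of 0.484 to 0.631. Fold changes printed with an SE come from the fit that does not use this pairing. With the horse as a block the SE was smaller for most of the 28 (RGS16 0.42 in place of 0.92). It was slightly larger for SNCB, KIF26B and GBX2. The 28 genes and all lists were chosen with earlier results of these data known. Values in every library are given for the 10 genes with the most licensed counts and the 8 with the largest deposited change. They are also given for FAM43B, which is in neither choice and was the exception in the limma fit. The grouping by role was made after the members were known. Depth limits precision: intervals cover counting error only. No sequence was used.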

Additional observations from a re-analysis of the deposited data

Results flagged for a closer look

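In 15 of the 56 sets of 6 libraries (28 genes in 2 groups), a single library lay farther from the other 5 than Dixon's 95% limit for 6 values allows. For normally distributed values chance flags about 1 set in 20, but counts bounded at 0 are not normal and that share need not hold for them. In all 15 it was the highest library. In licensed cells horse 1 stood out for CADPS (296 normalized counts, the others 32.1 to 85.1), SNCB (189, the others 51.8 to 84.3), AFF3 (106, the others 30.3 to 55.0) and CTNNA2 (90.9, the others 23.5 to 46.1). Horse 4 stood out in licensed cells for KRT8 (227, the others 11.7 to 76.7). In naive cells horse 1 stood out for RGS16 (38.1, the others 0 to 1.11), CADPS (23.3, the others 0 to 2.22), TCF15 (15.9, the others 0.969 to 5.55), CTNNA2 (20.1, the others 1.07 to 6.66) and GPR183 (33.9, the others 1.04 to 9.29). Naive horse 4 stood out for FDCSP (15.6, the others 0 to 5.16) and KRT8 (25.5, the others 5.16 to 9.35). Naive horse 6 stood out for HHIP (19.6, the others 0 to 3.33) and KIF26B (6.20, the others 1.04 to 2.91), and naive horse 3 for AMN (18.4, the others 1.03 to 5.55). The reason was not tested.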

How the results depend on the processing

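Which genes are included depended on the limits. The rule gave 12 genes with a naive limit of 5 normalized counts and 76 with a limit of 20, and 59 with a licensed limit of 20 and 13 with a limit of 50. With medians it gave 32 genes, 20 of them shared with the 28. Leaving out 1 horse gave 25 to 33 genes, of which 21 to 25 were shared, and 17 of the 28 stayed whichever horse was left out. AMN, C11H17orf107, CACNG4, FAM43B, GBX2, GPR183, IGDCC3, KRT8, SDCBP2, TCF15 and UCP1 left in at least 1 such case. Without horse 1 the cytokine gene OSM entered, with means of 206 licensed and 3.35 naive. limma called 27 or 28 of the 28 without any 1 horse, and 27 with the horse as a replicate block, under which no call among the 28 changed. edgeR with the deposited size factors, edgeR with TMM and DESeq2 with size factors of its own each called 28. edgeR without horse 1, added after seeing the data, called 27. Of all 1341 listed genes, these fits called 669, 473, 662 and 618 as higher, in that order. TMM thus called fewer listed genes than the deposited size factors did. The rule had already set the group means of the 28 well apart, and their lowest log2 fold change under TMM was 1.49. That all 28 were still called is therefore no evidence about them. limma called 649 listed genes as higher in the main fit, 655 with the block and 599 to 623 without 1 horse. Among the 28, the call that changed was that of FAM43B. Its limma adjusted p was 0.0474 without horse 5, and 0.109 to 0.589 without another horse. TMM over the listed genes changed log2 fold changes by a median of -0.25. No gene changed sign in any fit. The count without overlap between groups was 14 to 20 without 1 horse. Leaving out a horse can only remove overlap, for any gene. This range is therefore a description, with no share over other genes beside it. The search for promoter motifs was not run. Near 0, depth limits the naive levels.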
